A study of Mus musculus with 4 samples.

Results

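Multiciliated cells of the airway carry the motile cilia that clear mucus, and their identity is set by a small set of regulatory genes. The 10 regulators described here are Foxj1, Mcidas, Gmnc, Ccno, Rfx2, Rfx3, Myb, E2f4, E2f5 and Trp73. They were chosen by symbol from what is known of their roles, and all 10 were found among the 25124 genes of the table. RNA sequencing covered 4 samples of airway epithelial cells sorted from the lungs of wild-type C57BL/6 mice, and every mouse had been sensitised with house dust mite (HDM). The groups were 2 samples from mice given HDM and the vehicle dimethyl sulfoxide (DMSO) and 2 from mice given HDM and an inhibitor of stearoyl-CoA desaturase 1 (SCD1), an enzyme that makes monounsaturated fatty acids. The name, dose and timing of the inhibitor, the age of the mice, the surface markers of the sort and whether animals were pooled are not stated in the labels. Nor do these say that each sample came from its own animals, and p values then measure only the spread between these samples.

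In a cell that is to become multiciliated, the geminin-related coiled-coil proteins of Gmnc and Mcidas act at the top of the programme. They work through the cell cycle factors E2F4 and E2F5, and they switch on genes that include Ccno, Myb, Trp73 and Foxj1. The cell, which no longer divides, then makes many centrioles at once. The forkhead factor FOXJ1 and the RFX factors, which bind a DNA element called the X-box, switch on the genes of the motile axoneme. The comparison of inhibitor with DMSO asked whether these regulators moved together with the structural genes of the cilium.

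The X-box is the element that the RFX factors bind. Every match is shown that was found in a regulator (1 gene) or in a tested structural gene of the cilium (13 genes). Promoters were taken from RefSeq (GRCm38.p6) and the 250 bases before each start were searched on both strands for the half-sites GTNNCC and GGNAAC with NN between them. RefSeq promoters were matched for 7 of the 10 regulators (9 promoters). Foxj1, E2f4 and E2f5 had no entry. Ccno, which encodes cyclin O, was the 1 regulator with a match, and 1.06% of all 32851 promoters held one. In the promoter of Ccno, capitals mark the X-box, which begins 219 bases before the start.
Ccno (chr13:112987552-112987801, plus strand): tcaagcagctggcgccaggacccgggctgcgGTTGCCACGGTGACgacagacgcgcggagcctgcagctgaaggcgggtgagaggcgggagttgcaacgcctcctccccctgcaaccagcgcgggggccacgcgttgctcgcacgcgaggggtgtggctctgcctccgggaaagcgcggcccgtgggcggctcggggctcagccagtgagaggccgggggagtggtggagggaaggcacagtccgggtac
In the structural genes, capitals mark the X-box and lower case the flanking bases. Deup1 encodes the scaffold of the deuterosome, where centrioles are amplified, and Cep83 a distal appendage protein that docks the centriole at the membrane. Ccdc151, Cfap206, Tekt4 and Dnaaf5 are axoneme genes or assemble its dynein arms. Ift22, Ift57 and Ttc26 belong to intraflagellar transport, Bbs7 to the BBSome, and Nphp4, Mks1 and Tctn2 to the transition zone.
Deup1 (chr9:15627912-15627941, minus strand, first capital 87 bases before the start): gaggccgcGTCTCCATGGCAACccactggg
Cep83 (chr10:94688768-94688789, plus strand, first capital 14 bases before the start): ccctccgaGTTTCCCGGGCTAC
Ccdc151 (chr9:22002647-22002676, minus strand, first capital 34 bases before the start): cgcgggcgGTTTCCTTGGGAACgtgggcgg
Cfap206 (chr4:34730208-34730237, minus strand, first capital 23 bases before the start): cgcgttccGTTTCCACGGTTACgcgactgc
Tekt4 (chr17:25471422-25471451, plus strand, first capital 160 bases before the start): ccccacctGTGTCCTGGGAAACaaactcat
Dnaaf5 (chr5:139150209-139150234, plus strand, first capital 18 bases before the start): tagcgccgGTTCCCTTGGAGACaggc
Ift22 (chr5:136908079-136908108, plus strand, first capital 63 bases before the start): ctgtcaggGTTTCCTGGGCTACtgcgcagc
Ift22 (chr5:136908109-136908138, plus strand, first capital 33 bases before the start): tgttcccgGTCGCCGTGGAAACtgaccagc
Ift57 (chr16:49699199-49699228, plus strand, first capital 87 bases before the start): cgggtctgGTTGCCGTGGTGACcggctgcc
Ttc26 (chr6:38381483-38381512, plus strand, first capital 33 bases before the start): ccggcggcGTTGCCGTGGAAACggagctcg
Bbs7 (chr3:36613489-36613518, minus strand, first capital 121 bases before the start): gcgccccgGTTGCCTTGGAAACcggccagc
Nphp4 (chr4:152477903-152477932, plus strand, first capital 231 bases before the start): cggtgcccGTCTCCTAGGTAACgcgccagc
Mks1 (chr11:87853183-87853212, plus strand, first capital 24 bases before the start): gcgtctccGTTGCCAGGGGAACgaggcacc
Tctn2 (chr5:124598679-124598708, plus strand, first capital 62 bases before the start): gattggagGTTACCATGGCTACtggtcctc
A match is a description of the letters and not of binding. Of the tested structural genes with a promoter, 4 of 66 axoneme genes, 2 of 30 centriole genes and 7 of 42 transport and transition zone genes held an X-box. Among all tested genes with a promoter, 201 of 10898 (1.84%) did. In the comparison of inhibitor with DMSO the median log2 fold change of axoneme genes was 0.049 for the 4 with an X-box and 0.15 for the 62 without. For transport and transition zone genes the medians were 0.12 with and 0.14 without. For centriole genes they were 0.57 for the 2 with and 0.17 for the 28 without. After the correction for transcript GC content described below, the axoneme medians were 0.180 with and 0.184 without. Those of transport and transition zone genes were then 0.24 and 0.15, and those of centriole genes 0.40 and 0.13. In the test described below, 4 of the 201 tested genes with an X-box were called higher, and 148 of the 10697 without one. Of the 13 structural genes, Cep83 alone passed that test (log2 fold change 1.06). The other 12 ranged from -0.20 in Tctn2 to 0.54 in Bbs7, and Tekt4 and Ttc26 were also negative (-0.10 and -0.027).

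The paralogs Rfx2 and Rfx3 are shown because the test below called one and not the other. Their promoters held no X-box. Capitals in Rfx2 mark a MYB core, TAACNG, which 19.8% of all promoters also held. Rfx3 held none of the elements searched, which were also the forkhead core TGTTTAC, the E2F core TTTNNCGC and the p53-family half-site.
Rfx2 (chr17:56831009-56831258, minus strand): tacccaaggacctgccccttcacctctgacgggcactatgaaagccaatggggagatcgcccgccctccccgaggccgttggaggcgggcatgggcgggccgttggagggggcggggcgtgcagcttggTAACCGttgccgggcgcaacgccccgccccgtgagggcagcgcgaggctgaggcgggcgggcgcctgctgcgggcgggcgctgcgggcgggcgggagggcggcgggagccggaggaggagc
Rfx3 (chr19:28011167-28011416, minus strand): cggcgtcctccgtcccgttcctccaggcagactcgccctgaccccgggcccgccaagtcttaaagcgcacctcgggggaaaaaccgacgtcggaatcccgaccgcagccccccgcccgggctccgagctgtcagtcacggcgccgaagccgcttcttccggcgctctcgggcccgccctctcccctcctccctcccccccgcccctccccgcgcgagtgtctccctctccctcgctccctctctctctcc

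The libraries held 24591122 to 27013663 reads assigned to genes. Values are normalised reads, meaning reads of a gene after division by the size factor of its library. Defining markers of ciliated cells were abundant. Sec14l3 had 275476 to 299679 normalised reads and Tppp3 47419 to 59372, and all 20 markers on the ciliated list were tested. A gene was tested if its mean reached 25.8, which equals 1 CPM (normalised reads scaled to the library total), which all 10 regulators did. Fold changes are on the scale log2(value + 25.8), and a gene is said to have risen or fallen if the adjusted p of limma over all 13810 tested genes was under 0.05.

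Compared per kilobase of exon, Foxj1 was by far the most abundant of the 10. It averaged 20747 normalised reads per kilobase, with 18993 to 23460 in the 4 libraries. Trp73 followed at 1293, then Myb at 752, Rfx2 at 702, E2f4 at 586, Rfx3 at 429, E2f5 at 352 and Ccno at 191. Mcidas, at 36.9, and Gmnc, at 28.6, were the lowest. The pairs Myb and Rfx2, Rfx2 and E2f4, Rfx3 and E2f5, and Mcidas and Gmnc overlapped across libraries, and the other neighbours in this order did not. Foxj1, which the finished ciliated cell still needs, thus stood far above the factors that start the programme in both groups.

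**Figure D1:**
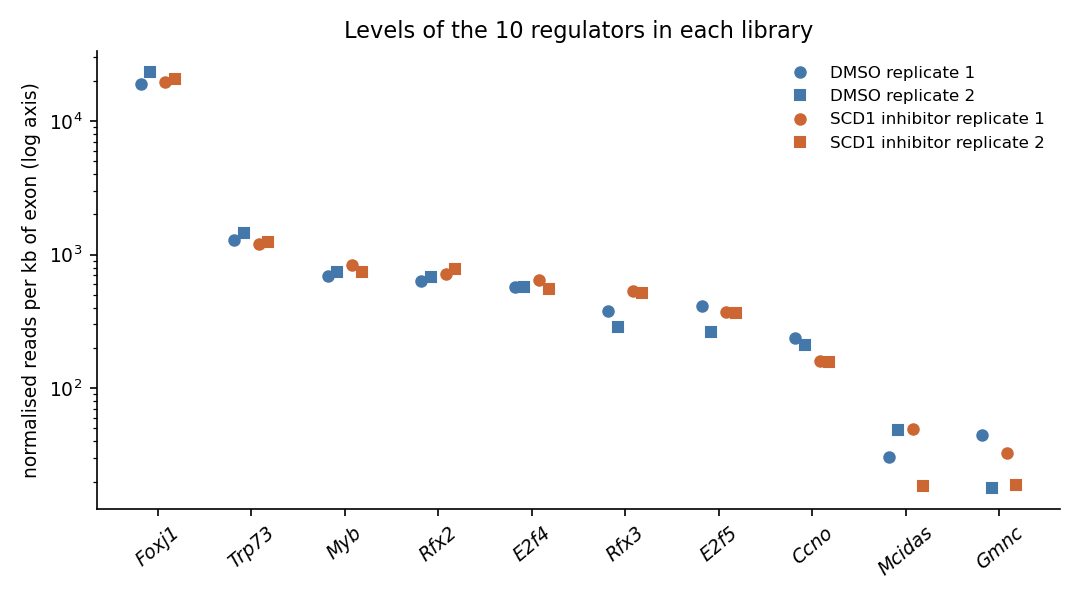
Normalised reads per kilobase of exon (log axis) for the 10 regulators, ordered by their mean, with 1 point per library (blue, DMSO; orange, SCD1 inhibitor; circles, replicate 1; squares, replicate 2). Foxj1 lies at 18993 or above in all 4 libraries, Mcidas and Gmnc lie below 50, and the inhibitor points lie clear of the DMSO points upwards for Rfx2, Rfx3 and Myb and downwards for Ccno and Trp73 (44.9% of all tested genes were separated in one direction or the other).

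Rfx3 was the 1 regulator that rose with the inhibitor, and no regulator fell. Among all tested genes 1.36% were called higher and 0.427% lower (1.79% in either direction; 0.0654% with edgeR), so 1 call in 10 genes is a count too small to set the regulators apart. The 10 log2 fold changes had a median of 0.0075, with 5 above and 5 below 0, and the median of all tested genes was 0.0056. In bulk samples a change in the number of ciliated cells and a change in RNA per cell cannot be told apart.

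Gmnc and Mcidas, the initiators, were low and varied between replicates. Gmnc (chromosome 16, 26913553 to 26991652, minus strand, GRCm38) had 257 and 103 normalised reads with DMSO and 189 and 108 with the inhibitor. Mcidas (chromosome 13, 112993845 to 113000394, plus strand) had 73.1 and 115 with DMSO and 118 and 44.1 with the inhibitor. For both genes the groups overlapped, and replicates of the same group lay further apart than the group means. The log2 fold changes were -0.17 (95% interval -1.21 to 0.87, limma adjusted p = 0.913) for Gmnc and -0.23 (-1.40 to 0.93, adjusted p = 0.897) for Mcidas. These intervals reach beyond 1 log2 unit downwards, so a change of that size is within them. On the same log2 scale the DMSO replicates of Gmnc lay 1.14 apart and the inhibitor replicates of Mcidas 1.05.

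Ccno, needed to amplify centrioles, lies on chromosome 13 at 112987802 to 112990777, 3.07 kb before Mcidas on the same strand. It had 612 and 534 normalised reads with DMSO and 405 and 404 with the inhibitor. Both inhibitor libraries lay below both DMSO libraries, as they did for 22.2% of all tested genes (44.9% were separated in either direction). The mean was 573 ± 55.1 (SD, n = 2) against 405 ± 0.899 (n = 2), and the log2 fold change, -0.47 ± 0.26 (SE), missed the threshold (adjusted p = 0.458). The interval ran from -1.04 to 0.092. Its neighbour Mcidas did not show the same order of libraries, and neither did Cdc20b, the host gene of the miR-449 cluster 34.7 kb further on. Cdc20b had 85.8 and 85.2 with DMSO and 106 and 22.03 with the inhibitor.

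E2f4 and E2f5, the E2F factors through which Gmnc and Mcidas act, did not pass. E2f4 (chromosome 8, 105297663 to 105305370, plus strand) had 1405 and 1391 normalised reads with DMSO and 1596 and 1359.5 with the inhibitor. E2f5 (chromosome 3, 14578641 to 14606309, plus strand) had 731 and 469 with DMSO and 659 and 650.4 with the inhibitor. The groups overlapped for both. Their log2 fold changes were 0.074 (95% interval -0.29 to 0.43, adjusted p = 0.893) and 0.15 (-0.41 to 0.72, adjusted p = 0.854). Tfdp1 and Tfdp2 encode the partners with which E2F factors bind DNA, and their values lay on opposite sides of 0. Tfdp1 had -0.16 (adjusted p = 0.777). Tfdp2 had 1965 and 1587 normalised reads with DMSO and 2347 and 2242 with the inhibitor. Its inhibitor libraries lay above both DMSO libraries, as for 22.7% of all tested genes, and its 0.37 did not pass either (adjusted p = 0.299). Gmnn, the geminin gene whose protein pairs with both initiators, had 0.18 (adjusted p = 0.909). These genes were named after their values were seen.

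Myb, a factor of early multiciliated cells that also drives dividing blood progenitors, had 6202 and 6569.6 normalised reads with DMSO and 7457 and 6659 with the inhibitor (chromosome 10, 21124935 to 21160984, minus strand). The inhibitor libraries lay above both DMSO libraries, the nearest pair closely, and 22.7% of all tested genes were separated in this direction. The log2 fold change was 0.14 ± 0.11 (SE, adjusted p = 0.635). Leukocyte markers were low in the same libraries, with 10 of 20 tested. Their summed level was 34.1 and 79.1 CPM with DMSO and 63.1 and 41.5 with the inhibitor, and Cpa3, Gata1 and Ly6g were at 0 in all 4. Markers of dividing cells were also low, with 12 of 18 tested and summed levels of 92.4 and 111 with DMSO and 89.4 and 104 with the inhibitor.

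Trp73, the p53-family gene whose product switches on Foxj1 and other ciliary regulators, had 7162 and 7982 normalised reads with DMSO and 6605 and 6871 with the inhibitor (chromosome 4, 154056253 to 154140208, minus strand). Both inhibitor libraries lay below both DMSO libraries, as for 22.2% of all tested genes. The means were 7572 ± 580 and 6738 ± 188 (SD, n = 2 each) and the log2 fold change, -0.17 ± 0.11 (SE), missed the threshold (adjusted p = 0.563; 95% interval -0.41 to 0.077). The annotation places the antisense gene Trp73os over 4875 bases of Trp73, Gm26577 over 9281 bases of Myb and Gm20407 over 1497 bases of Rfx3. Whether counting used strand is not given here, so reads of these partners cannot be told apart from those of the regulators.

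Foxj1, the regulator of the motile axoneme, showed no call in either direction. It had 49818 and 61535 normalised reads with DMSO and 51757 and 54569 with the inhibitor (chromosome 11, 116330704 to 116335399, minus strand). Both inhibitor values lay between the DMSO values. The log2 fold change was -0.059 ± 0.12 (SE, adjusted p = 0.880), and its 95% interval ran from -0.32 to 0.20. The upper bound lies near the 0.16 that was the median of the axoneme genes below.

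Of the X-box factors, Rfx3 passed the test and Rfx2 did not, and the difference between them was not tested. Rfx3 (chromosome 19, 27761721 to 28011166, minus strand) had 4177 and 3181 normalised reads with DMSO and 5920.5 and 5648 with the inhibitor. Both inhibitor libraries lay above both DMSO libraries, as for 22.7% of all tested genes. The DMSO replicates differed more from each other than the inhibitor replicates did. The means were 3679 ± 704 and 5784 ± 193 (SD, n = 2 each). Rfx3 rose 1.58-fold, with a log2 fold change of 0.66 ± 0.14 (SE; 95% interval 0.36 to 0.96; adjusted p = 0.0322). The call was lost with either inhibitor library left out, while the log2 fold change stayed at 0.63 (replicate 1 omitted) and 0.70 (replicate 2 omitted). Each of these fits rests on a lone inhibitor sample, so the loss cannot show whether the call of Rfx3 was fragile. The call was also lost in edgeR on recovered reads (0.64, edgeR adjusted p = 0.138), where 0.0654% of all genes were called. DESeq2 on the same reads kept it (0.65, DESeq2 adjusted p = 0.000939), and called 339 genes higher and 145 lower.

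Rfx2 (chromosome 17, 56775897 to 56831013, minus strand) had 4605 and 4941 normalised reads with DMSO and 5236 and 5751 with the inhibitor. Its inhibitor libraries also lay above its DMSO libraries, as for 22.7% of all tested genes. The log2 fold change was 0.20 ± 0.12 (SE) and missed the threshold (limma adjusted p = 0.488, 95% interval -0.054 to 0.46). Among the other RFX genes, Rfx7 had the smallest p of the other regulators and of the family relatives (0.71 ± 0.17, SE, adjusted p = 0.0556), Rfx1 had 0.058 (adjusted p = 0.905) and Rfx5 -0.00030 (adjusted p = 0.9997). Rfx4 lay under the floor, with reads in 1 library.

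**Figure D2:**
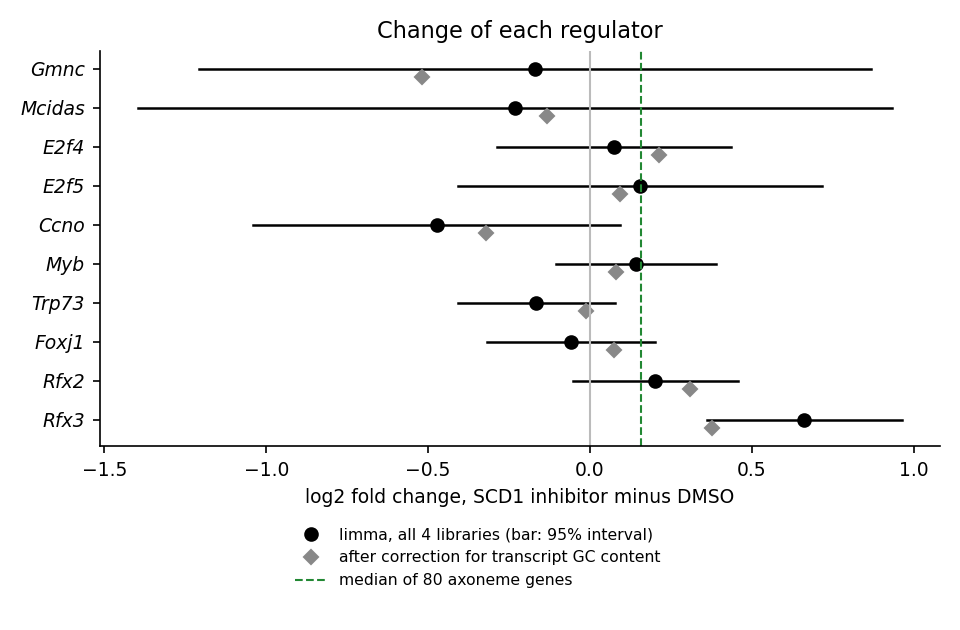
Log2 fold change of each regulator, SCD1 inhibitor minus DMSO, with its 95% interval (black), its value after correction for transcript GC content (grey diamonds) and the median of 80 axoneme genes (green dashes). The interval of Rfx3 alone lies clear of 0, and its corrected value of 0.38 lies to the left of the uncorrected 0.66.

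The structural genes had higher medians than the regulators. Of 80 tested axoneme genes, 64 had a positive log2 fold change, 11 rose and none fell. Of all 13810 tested genes, 7000 were positive and 1.36% rose. The axoneme median was 0.16, against 0.0056 for all tested genes and 0.0075 for the 10 regulators. Ccdc39, needed to assemble the axoneme, had 6580.1 and 4195 normalised reads with DMSO and 14105 and 14191 with the inhibitor, 2.68-fold higher (adjusted p = 0.00140). Dnah12, an axonemal dynein heavy chain, rose 2.08-fold (adjusted p = 0.00508), Spef2, of the central pair, 1.99-fold (adjusted p = 0.00932), and Cfap53 1.85-fold (adjusted p = 0.00454). Enkur and Cfap43 rose 1.80-fold and 1.64-fold (adjusted p = 0.00491 and 0.0108). Tppp3, the most abundant per kilobase, had 0.063 (adjusted p = 0.878). With 1 library left out, the axoneme median ran from 0.15 to 0.19.

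Centriole genes gave a similar median. Of 34 tested, 25 were positive, 4 rose and none fell, with a median of 0.15, and after the GC correction described below 2 passed. Of all tested genes 1.36% rose, and 0.379% did so after that correction. Pcm1, the organiser of centriolar satellites, had 4024 and 2582 normalised reads with DMSO and 7951 and 7862 with the inhibitor, 2.44-fold higher (adjusted p = 0.00281). The appendage genes Cep83 and Sclt1 rose 2.09-fold and 2.51-fold (adjusted p = 0.00875 and 0.0473), and Ccp110, which caps centrioles, 1.42-fold (adjusted p = 0.0417). Ccdc78, the most abundant per kilobase, had 0.17 (adjusted p = 0.523). Deup1, the deuterosome gene shown above, had 1275 and 1199 with DMSO and 1330.1 and 1286 with the inhibitor (0.079, adjusted p = 0.886; named after its value was seen). The median of the 34 ran from 0.17 to 0.23 with 1 library left out.

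In intraflagellar transport, the BBSome and the transition zone, 39 of 50 genes were positive, 4 rose and none fell (median 0.15). After GC correction 1 passed, Cep290. The shares of all tested genes that rose were 1.36% before and 0.379% after GC correction. Cep290, of the transition zone, had 1037 and 748 normalised reads with DMSO and 4069.6 and 3190.1 with the inhibitor (adjusted p = 0.000365), and its log2 fold change was 1.65 after GC correction. Ift74 and Ift81, partners in the transport complex, rose 1.96-fold and 1.47-fold (adjusted p = 0.0102 and 0.0432), and Dync2h1, the motor of return transport, 1.58-fold (adjusted p = 0.0203). Traf3ip1, the most abundant per kilobase, had 0.37 (adjusted p = 0.0921). The median of the 50 ran from 0.15 to 0.21 with 1 library left out.

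Of the 21 tested genes on the list of other regulators and cell cycle partners, none passed in limma (median 0.073, 12 positive). An unadjusted limma p under 0.05 was found for 3, and for 1944 of all 13810 tested genes. For this list edgeR called 0 and DESeq2 1, and among all genes DESeq2 called 339 higher and 145 lower. Jazf1, a zinc finger gene, had 0.64 (adjusted p = 0.256), and Tubb4b, the most abundant per kilobase and the gene of a tubulin of the axoneme, had -0.078 (adjusted p = 0.849).

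**Figure D3:**
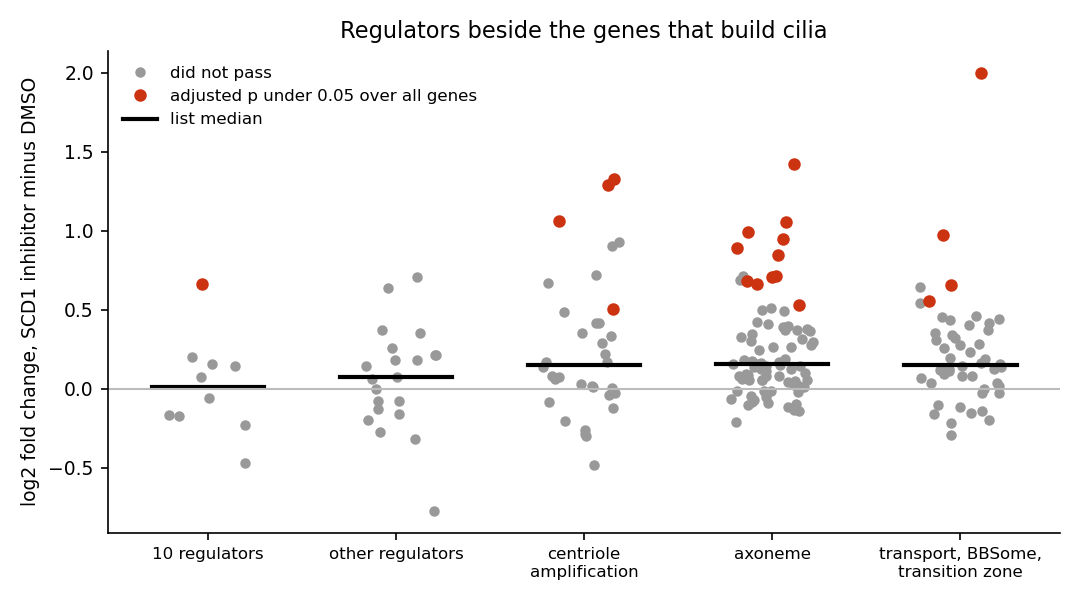
Log2 fold changes, SCD1 inhibitor minus DMSO, of the 10 regulators, the other regulators and 3 lists of structural genes, 1 point per gene, with list medians (black) and genes of adjusted p under 0.05 (red). Called genes are 1 of 10 regulators, 0 of 21 other regulators, 4 of 34 centriole, 11 of 80 axoneme and 4 of 50 transport and transition zone genes. Of all tested genes 1.79% were called.

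To set each regulator against the structural genes of its own library, its log2 value was taken relative to the mean of the 80 axoneme genes. That mean was 12.71 and 12.68 with DMSO and 12.93 and 12.97 with the inhibitor, higher by 0.25. On this scale the median difference of all tested genes was -0.25 and that of the axoneme genes themselves -0.096. Of the 10 regulators, 9 had a negative difference. For Foxj1, Trp73, Ccno and E2f4 both inhibitor libraries lay below both DMSO libraries, as they did for 46.9% of all tested genes. Foxj1 lay 2.89 and 3.23 log2 units above the axoneme mean with DMSO and 2.73 and 2.77 above it with the inhibitor. Its difference of -0.31 did not pass (adjusted p = 0.130). Trp73 passed (-0.42 ± 0.11, SE, adjusted p = 0.0475), where 6.47% of all genes were called, and Ccno, at -0.73, did not (adjusted p = 0.104).

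Rfx3 was the exception, at -0.68 and -1.03 log2 units from the axoneme mean with DMSO and -0.39 and -0.50 with the inhibitor (difference 0.41, adjusted p = 0.0877), and 8.52% of all genes were separated upwards. The median over all tested genes was -0.25 and that of the regulators -0.24, so the regulators lay near the bulk of all genes on this scale. With 2 samples against 2, an exact permutation test of a single such value cannot give a two-sided p below 0.333.

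**Figure D4:**
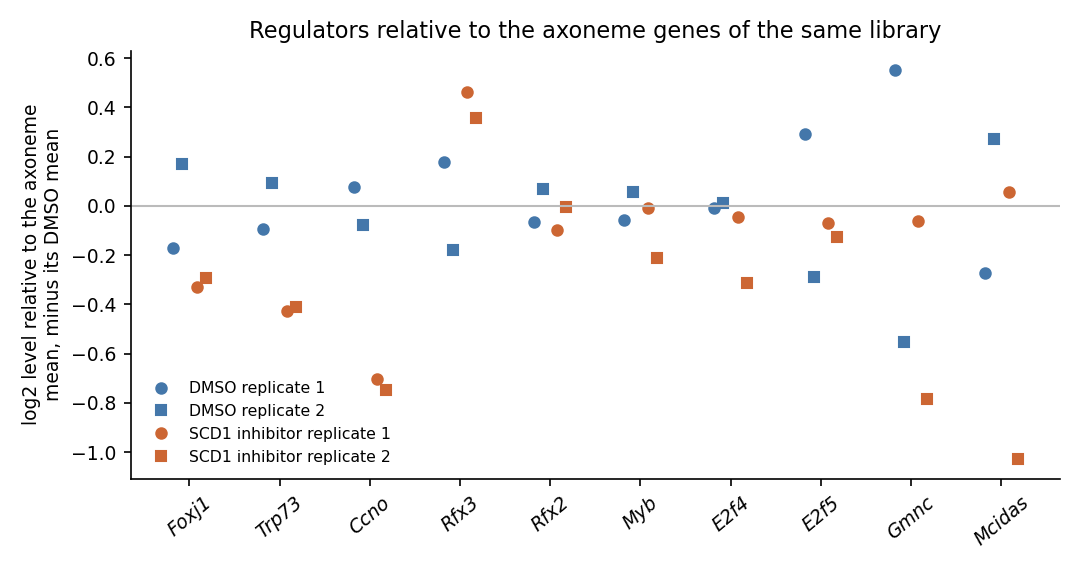
Log2 level of each regulator relative to the mean of 80 axoneme genes of the same library, with the DMSO mean set to 0 (blue, DMSO; orange, SCD1 inhibitor; circles, replicate 1; squares, replicate 2). The inhibitor points lie below both DMSO points for Foxj1, Trp73, Ccno and E2f4 and above both for Rfx3. Of all tested genes, 46.9% were separated downwards and 8.52% upwards on this scale.

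Levels followed the GC content of the transcripts, and did so differently in the 2 groups. Over 13709 tested genes, Spearman's rho between log2 fold change and GC content was -0.37, and it was -0.72 over the 80 axoneme genes. These are descriptions across genes that share the same 4 libraries. With genes split into 4 equal bins of GC content, the median level of the lowest bin minus that of the highest, each as deviation from the gene's mean, was -0.080 and -0.29 in the DMSO libraries and 0.20 and 0.16 in the inhibitor libraries. In the bin of lowest GC (up to 45.3%), 9 of 19 axoneme genes rose, with a median of 0.66 against 0.22 for all 3428 genes of that bin, of which 150 (4.38%) rose. In the bin of highest GC (over 54.7%), 0 of 11 axoneme genes rose (median -0.014, against -0.13 for all 3427 genes, of which 0.117% rose).

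The regulators were spread over all 4 bins, with a median GC content of 53.8% against 49.98% for the axoneme genes. Foxj1 (61.4%), Ccno (57.2%), Trp73 (57.0%) and E2f4 (56.1%) fall in the highest bin and Rfx3 (40.2%) and Gmnc (37.9%) in the lowest, with Mcidas, Rfx2, Myb and E2f5 between them. Among the 718 tested genes within 1 percentage point of the GC content of Rfx3 the median log2 fold change was 0.28 and 5.57% were called higher, and the 0.66 of Rfx3 exceeded 82.7% of them. After correction of each library for GC content alone, an alternative chosen after seeing the data, Rfx3 had 0.38 and no longer passed (adjusted p = 0.255). Rfx2 then had 0.31, Foxj1 0.074 and Trp73 -0.014, and no regulator passed, where 0.518% of all genes did.

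The axoneme genes kept a shift under the same correction, with 75 of 80 positive, a median of 0.20 and 7 called higher, where 0.379% of all genes were called higher. Ccdc39 (1.08, adjusted p = 0.00910) and Dnah12 (0.84, adjusted p = 0.0314) still passed. The median of the regulators was 0.077. Correction for GC content and length together gave 10 called axoneme genes and left Rfx3 at 0.22 (adjusted p = 0.443).

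**Figure D5:**
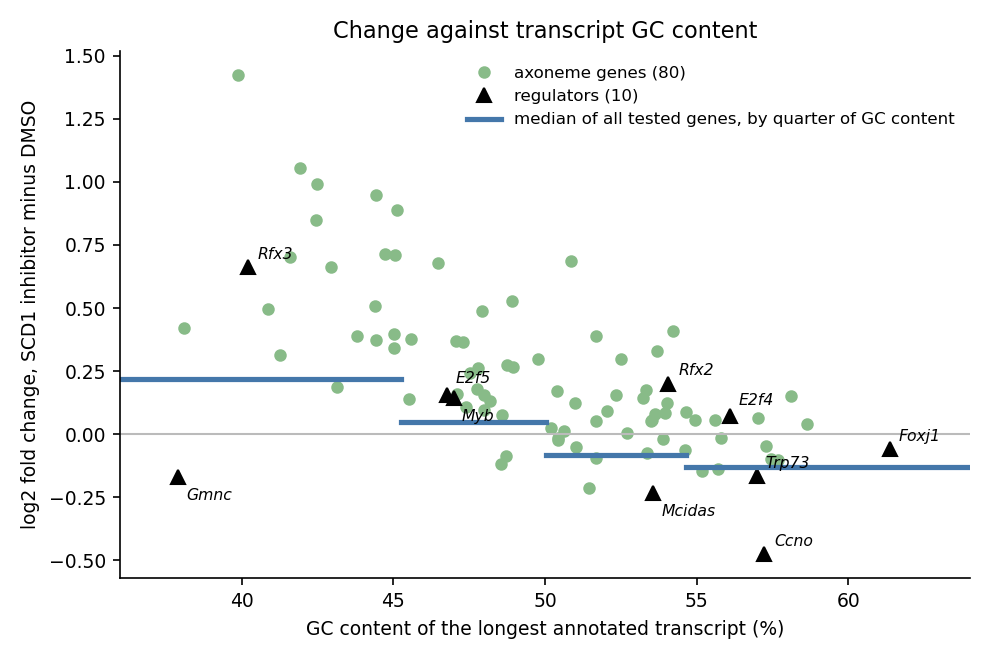
Log2 fold change, SCD1 inhibitor minus DMSO, against the GC content of the longest annotated transcript for 80 axoneme genes (green) and the 10 regulators (black, named), with the median of all tested genes in each of 4 equal bins of GC content (blue bars). The blue bars step down from 0.22 to -0.13, and Rfx3 lies among the GC-poor axoneme genes that were higher.

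Cell type markers moved in the same libraries. The ciliated list had 17 of 20 markers positive and 4 that rose (median 0.23), where 1.36% of all tested genes rose. Of the 20, 8 are also on the axoneme list. The summed level of the ciliated list was 20529 and 20733 CPM with DMSO and 21601 and 22099 with the inhibitor. Lrriq1, Fam216b and Ccdc39 had the smallest p, and Sec14l3, the most abundant marker, had -0.085 (adjusted p = 0.819). Secretory markers lay lower. Of all tested genes 0.427% fell. All 11 goblet cell markers were negative and 7 fell, with a summed level of 4145 and 3192 CPM with DMSO and 767 and 1467 with the inhibitor. Clca1, the most abundant of them per kilobase, fell by 1.88 on the log2 scale (limma adjusted p = 0.00163). Club cell markers had 12 of 12 negative values, with 6 that fell (29746 and 26343 against 26276 and 18184 CPM), with Scgb1a1 at -0.23 (adjusted p = 0.729). On the alveolar type 2 list 9 of 10 values lay below 0 and 5 genes fell (16166 and 18626 against 12763 and 10574), Sftpc among them (-0.65, adjusted p = 0.0345).

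Basal markers, with 6 of 8 tested, were all negative and none passed, with 4 at an unadjusted p under 0.05 and 0 called by edgeR or DESeq2 (209.8 and 154 against 37.7 and 121 CPM), and the most abundant, Krt15, had -1.497 (adjusted p = 0.0921). Alveolar type 1 markers, with 7 of 8 tested, had 1 that fell (861 and 908 against 777 and 810.0), where 0.427% of all tested genes fell. Hopx had 0.13 (adjusted p = 0.723). None of the 7 mesenchymal markers tested passed, with 3 at an unadjusted p under 0.05 and 0 called by edgeR or DESeq2, although all were positive (59.7 and 146 against 150.1 and 143, with Lum at 0 in all libraries), and Acta2 had 0.058 (adjusted p = 0.951). None of the 7 endothelial markers passed, with 1 at an unadjusted p under 0.05, 0 called by edgeR and 1 by DESeq2 (99.8 and 262 against 103 and 129), and Cldn5 had 0.012 (adjusted p = 0.996). Cd68 of the leukocyte list had 0.91 (adjusted p = 0.666) and Pcna of the dividing cells 0.23 (adjusted p = 0.695). Of all 13810 tested genes, 1944 had an unadjusted limma p under 0.05. Among all genes DESeq2 called 339 higher and 145 lower. The part of these marker shifts in the values of the regulators and structural genes was not tested.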

How the data were processed

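RNA of sorted mouse airway epithelial cells was sequenced in 4 samples, 2 per group, from libraries made with a strand-preserving kit from 5 ng of total RNA, per the labels' protocols. The deposited signal values form 1 table, and by its values the authors scaled the reads of each library by a size factor. HOMER, DESeq2 and mm10 appear in the submitters' processing notes, with neither versions nor roles. Aligner and strand setting of the counting: not given in the sources used here. Every value was a whole multiple of 1 step per library (100% within 0.01 of a whole number), and division by the step gave the reads used in edgeR 4.0.16 and DESeq2 1.42.0. For DMSO replicate 2 the step, 0.991, is so near 1 that a test of its size alone cannot tell it from rounding.

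Values were tested as log2(value + 25.8) in limma 3.58.1 (R 4.3.3), with a trend of the variance on intensity (11.2 prior degrees of freedom), group as the only term and Benjamini-Hochberg adjustment over 13810 genes with a mean of at least 25.8. Alternatives of scaling, floor, pseudocount, model, tool and GC or length correction, the replicate block and each library left out in turn are given in the closing section. The scripts were tested on simulated data. Exon lengths, coordinates, and length and GC content of the longest transcript came from GENCODE M21 (GRCm38, which is mm10), matched for 24497 of 25124 symbols and for 137 more through older symbols. GC correction subtracted, per library, the median deviation in 20 bins. Counting error of a single library at the level of the DMSO mean ran from 0.424% (Foxj1) to 10.3% (Mcidas). PCR copies are not independent molecules. Members and lists were chosen with earlier results of these data known. Named were all 10 members, per list up to 6 genes that passed (at least the 2 of smallest p) and the most abundant per kilobase, and the markers of smallest p. Genes named outside this rule were Deup1, Cdc20b, Tfdp1, Tfdp2, Gmnn, Rfx1, Rfx4, Foxj2, Foxj3, the genes near regulators and those with an X-box shown.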

Additional observations from a re-analysis of the deposited data

How the results depend on the processing

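Rfx3 kept its direction in every alternative run and lost its call in 10 of 19. The 9 that kept it included DESeq2 on recovered reads (0.65, DESeq2 adjusted p = 0.000939) and the replicate block (0.66, limma adjusted p = 8.62e-05). Rfx3 lost the call in the settings that follow. Its log2 fold change (adjusted p) was 0.66 (0.0872) with no floor, 0.63 (0.050004) with upper-quartile scaling, 0.66 (0.457) without the intensity trend, 0.64 (0.138) in edgeR, 0.22 (0.443) after length and GC correction, 0.38 (0.255) after GC correction alone and 0.41 (0.0877) relative to the axoneme mean, the last 2 chosen after seeing the data. Leaving out 1 library gave 0.47 to 0.86, and the calls lost were those without SCD1 inhibitor replicate 1 or 2, which leave a lone inhibitor sample assumed to vary like the DMSO group. The cause was not tested.

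The number of regulators that passed was 0 with no floor, upper-quartile scaling, no intensity trend, edgeR, both corrections and the correction with the block, and 0 to 1 with 1 library left out. Their median was 0.11 after length and GC correction, -0.24 relative to the axoneme mean and -0.030 to 0.17 with 1 library left out. Values that changed sign were Foxj1 (0.10 after length and GC correction, 0.074 after GC correction alone, -0.21 to 0.093 with 1 library left out), Mcidas (-0.76 to 0.29), Gmnc (-0.74 to 0.40), E2f4 (-0.039 to 0.19) and E2f5 (-0.15 to 0.46) with 1 library left out, and, relative to the axoneme mean, Rfx2 (-0.051), Myb (-0.11), E2f4 (-0.18) and E2f5 (-0.099). None of these passed under any of those settings. Ccno kept its sign in all 19 alternatives. Mcidas was under the floor 4 times higher.

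Axoneme genes that passed numbered 6 with no floor, 0 without the trend and in edgeR, 24 in DESeq2, 7 after GC correction alone, 7 relative to their own mean and 0 to 24 with 1 library left out. Their median was 0.13 with upper-quartile scaling, 0.20 after either correction, -0.096 relative to their mean (a scale centred on that mean) and 0.15 to 0.19 with 1 library left out. Over the whole table, genes higher and lower numbered 51 and 13 with no floor, 107 and 35 with upper-quartile scaling, 0 and 0 without the trend, 7 and 3 in edgeR, 339 and 145 in DESeq2, 88 and 37 after length and GC correction, 52 and 19 after GC correction alone, 71 and 823 relative to the axoneme mean, and 0 to 616 and 5 to 179 with 1 library left out.

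Whether the replicate numbers pair the samples cannot be settled with 2 numbers. Deviations of DMSO replicate 1 and inhibitor replicate 1 from their group means had a correlation of 0.073 across genes. The replicate block gave 469 and 205 genes higher and lower, 20 axoneme genes and Rfx3 at 0.66. The block with length and GC correction gave 317 and 227 genes, 18 axoneme genes (median 0.20), Rfx3 at 0.22 (adjusted p = 0.353), Foxj1 at 0.10 and a regulator median of 0.11. At the level of their DMSO means, a single library of Mcidas and Gmnc carries counting errors of 10.3% and 7.45%, the highest of the 10 regulators.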

Other observations

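Relatives of the regulators that have no part in the list of 10 showed no call. The 21 listed genes were from the E2F, RFX, FOXJ, MYB, p53 and geminin families, plus Rfxap and Rfxank, which are not RFX family members. Of the 21, 16 were tested, and none passed in limma, with 6 positive and 10 negative (median -0.037). An unadjusted limma p under 0.05 was found for 4, and for 1944 of all 13810 tested genes. For these relatives edgeR called 0 and DESeq2 1, and among all genes DESeq2 called 339 higher and 145 lower. Of the 21 relatives, 5 also stood on the list of other regulators. E2f2, an E2F of dividing cells, had 1121 and 797 normalised reads with DMSO and 766 and 381 with the inhibitor, with both inhibitor libraries below both DMSO libraries (log2 fold change -0.78 ± 0.30, SE, adjusted p = 0.262). The forkhead genes Foxj2 and Foxj3 lay on opposite sides of 0, at -0.43 (adjusted p = 0.353) and 0.40 (adjusted p = 0.320). Groups did not overlap for either, nor for E2f2, where 44.9% of all tested genes were separated in one direction or the other. GC content also differed between Foxj2 and Foxj3. Their transcripts have 55.1% and 46.2% GC, and after GC correction the values were -0.33 and 0.32. Rfx5 was the most abundant relative per kilobase.

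Values of tested genes next to the regulators fell on either side of 0 and none passed, with an adjusted p of 0.458 or more by limma. Elmo3, near E2f4 on the same strand, had 1337 and 1413 normalised reads with DMSO and 1228 and 1129 with the inhibitor (log2 fold change -0.22, adjusted p = 0.623). Wrap73, near Trp73 on the other strand, had 85.8 and 216 with DMSO and 125 and 180.4 with the inhibitor (0.10, adjusted p = 0.948). Rnf157, near Foxj1, had 317 and 355 with DMSO and 535 and 361 with the inhibitor (0.37, adjusted p = 0.651). Rbis, which shares 26 bases with E2f5 on the other strand, had 39.0 and 44.6 with DMSO and 119 and 68.2 with the inhibitor (0.79, adjusted p = 0.567). Exoc3l, near E2f4 on the other strand, had 109 and 101 with DMSO and 118 and 165 with the inhibitor (0.34, adjusted p = 0.798).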
